A study of Rattus norvegicus with 17 samples.

Results

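The features described here were transcribed in sham-operated kidney, carried no gene name in the authors' assembly and had a long listed locus in the rat genome. A listed locus can be that of a whole group of overlapping features, so the transcript itself can be shorter. These features are called loci here. They were chosen from the gene table of 1/3Nx against Sham as features with no gene name, a Sham level of at least 1 FPKM and a listed locus of at least 2000 bp, and the same features were then read in the gene table of 5/6Nx against Sham. Each gene table lists 126306 features. Of these, 94457 had no name, 4355 of those reached 1 FPKM in Sham, and 2020 of these were long enough. FPKM is the number of sequenced fragments per kilobase of transcript, scaled to the mapped fragments of the library, so levels are per length. The Sham level chose the loci and is also the denominator of every fold change, so counts and medians of change over the loci are given as description beside the same figures for other features.

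The tissue was kidney of male Sprague Dawley rats, operated on at 10 weeks of age and sampled 6 weeks later, on a Dyets chow and with no drug or other treatment. In 5/6Nx (n = 6 rats) the whole right kidney and the greater part of the left one were removed. In 1/3Nx (n = 6) the same part of the left kidney was removed and the right kidney stayed. In Sham (n = 5) the rats kept both kidneys. Subtotal nephrectomy is used as a model of the loss of kidney mass.

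A transcript assembler joins spliced and overlapping reads into loci whether or not an annotation knows them. An unnamed locus can be a long noncoding RNA, the continuation of a known gene past its annotated end, an antisense or divergent transcript, retained intron RNA, or the primary transcript from which a microRNA (miRNA) or a small nucleolar RNA (snoRNA) is cut. Primary miRNA transcripts are long and are processed in the nucleus by Drosha, so a total RNA library can hold them as assembled loci without a gene symbol.

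Among the unnamed loci, 26 shared a listed locus with a named miRNA, and 9 mature sequences are shown because they say which miRNAs share these listed loci. Whether a miRNA precursor lies within the unnamed transcript itself was not tested. The sequences are the RefSeq (GRCr8) records, with the seed, bases 2 to 8, in capitals. The selection of these loci was made after values had been seen.
miR-192-5p: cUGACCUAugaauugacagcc
miR-194-5p: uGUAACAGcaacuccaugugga
miR-204-5p: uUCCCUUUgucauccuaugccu
miR-143-3p: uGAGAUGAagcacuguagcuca
miR-145-5p: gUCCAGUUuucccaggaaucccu
miR-10a-5p: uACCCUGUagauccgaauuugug
miR-10b-5p: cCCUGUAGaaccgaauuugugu
miR-221-3p: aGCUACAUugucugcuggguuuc
miR-222-3p: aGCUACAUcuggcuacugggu
miR-221-3p and miR-222-3p share the seed GCUACAU, and their genes share 1 listed locus with MSTRG.112860. The listed 10b sequence starts further into the stretch that it has in common with 10a, so the printed seeds of that pair differ. Of 29 miRNA symbols in these loci, 27 were matched in the RefSeq table.

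Depth and composition of the libraries bear on every value below. The libraries held 59.0 to 103.6 M reads (M, SI prefix mega) in 5/6Nx, 59.7 to 83.0 M reads in 1/3Nx and 66.1 to 78.5 M reads in Sham. Reads mapped at 62.6% to 90.5% in 5/6Nx, 87.1% to 90.1% in 1/3Nx and 84.8% to 89.6% in Sham, with 5/6Nx replicate 3 at 62.6% and replicate 5 at 77.2%. The tables hold 1 value per group, so no spread between rats can be set beside a level, and a lower value in whole tissue can mean fewer cells of a type or less RNA per cell, which cannot be told apart. Of 15 kidney markers 14 had a feature and all 14 reached 1 FPKM in Sham; their summed level was 2074 FPKM in 5/6Nx and 2880.4 FPKM in Sham, and on the scale of the other table it was 4357 FPKM in 1/3Nx and 5772 FPKM in Sham. Pancreas acinar markers, 8 of 10 with a feature and none at 1 FPKM in Sham, summed to 600 FPKM in 5/6Nx against 0.860 FPKM in Sham and to 857 FPKM in 1/3Nx against 1.72 FPKM in Sham. Adipocyte markers summed to 369 FPKM in 5/6Nx against 45.4 FPKM in Sham and to 255 FPKM in 1/3Nx against 91.0 FPKM in Sham. Injured tubule markers, Havcr1 and Lcn2 among them, summed to 1864 FPKM in 5/6Nx against 327 FPKM in Sham. In 1/3Nx they summed to 2197 FPKM against 656 FPKM in Sham. Most of these sums was Spp1, at 1492 FPKM in 5/6Nx against 203 FPKM in Sham. In 1/3Nx Spp1 had 1729 FPKM against 407 FPKM in Sham. The liver list summed to 119 FPKM in 5/6Nx against 41.8 FPKM in Sham. In 1/3Nx it summed to 186 FPKM against 83.7 FPKM in Sham. Of these sums Tf held 105 FPKM in 5/6Nx against 39.7 FPKM in Sham. In 1/3Nx Tf held 108 FPKM against 79.4 FPKM in Sham. Alb, Apoa1 and Ttr were lower than Sham in 5/6Nx, and Serpina1, Fgb, Fgg, Hp and Ahsg were higher. In 1/3Nx all of these were higher than Sham. For macrophages the summed levels were 39.4 FPKM in 5/6Nx against 13.7 FPKM in Sham, and 70.8 FPKM in 1/3Nx against 27.4 FPKM in Sham. For fibroblasts and matrix they were 84.5 FPKM in 5/6Nx against 23.2 FPKM in Sham and 155 FPKM in 1/3Nx against 46.4 FPKM in Sham. Lists of pancreas islet, skeletal muscle, urothelium and lymphocytes each summed to under 10 FPKM in Sham and to higher values after both surgeries. Adrenal markers summed to 9.30 FPKM in 5/6Nx against 4.11 FPKM in Sham and to 3.87 FPKM in 1/3Nx against 8.19 FPKM in Sham, and erythrocyte markers to 80.0 FPKM in 5/6Nx against 146 FPKM in Sham and to 293 FPKM in 1/3Nx against 291 FPKM in Sham. The part of these marker shifts, and of the poorly mapped libraries, in the values of the unnamed loci was not tested.

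The unnamed loci were mostly low. In Sham, on the scale of the 1/3Nx table, their median level was 2.23 FPKM, with quartiles at 1.41 and 4.83 FPKM and a highest value of 1252 FPKM. Of the 2020 loci 893 lay under 2 FPKM, 257 reached 10 FPKM, 44 reached 50 FPKM and 12 reached 100 FPKM. The same loci in the same Sham rats were listed 2.00 times as high in the 1/3Nx table as in the 5/6Nx table (SD 0.0111 over the loci, range 1.97 to 2.04), so a level in one table is not set against a level in the other. Of the loci, 1482 were assembled as 1 isoform and 538 as several, up to 29. In the loci with several isoforms the leading isoform held a median of 62.4% of the Sham FPKM. Only 6 of the loci contained an Ensembl transcript among their isoforms.

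The cutoffs divided loci that lay close together. The loci just above the Sham floor had 1.00 FPKM to the second decimal, and the one nearest below it, MSTRG.21428, had 0.9996 FPKM. The shortest loci kept were 2003, 2004 and 2008 bp long, and the nearest ones left out were 1998, 1996 and 1996 bp long.

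The loci were spread over all autosomes and X. Chromosome 1 held 231 of them (11.4%), chromosome 2 held 162 and X held 56, and 8 lay on unplaced sequences. Positions are printed as deposited. The submitters' notes name the build rn5, while sequence names in the tables belong to later rat assemblies, so the build is not settled.

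Most long unnamed loci shared their listed locus with a named feature. This was so for 1142 of 2020 (56.5%), against 13 of the 2335 (0.557%) unnamed loci under 2000 bp with at least 1 FPKM in Sham. A further 126 shared it with other unnamed features only, and 752 were the sole feature of their locus. Features that share a listed locus are given the same start and end, so the listed span of those 1268 loci is that of the whole group of overlapping features and can exceed the transcript itself. The 2000 bp rule reads this listed span, so sharing a locus with a gene can by itself place a feature among the long loci. The contrast with the short loci thus follows at least in part from the rule, and nothing is read from it. The median listed span was 62435 bp where a named feature was present and 4297 bp where the locus stood alone. Another 311 loci lay under 1 kb from the nearest named feature, 254 at 1 to 10 kb, 263 at 10 to 100 kb and 47 at 100 kb or more, and 3 had none on their sequence.

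**Figure D1:**
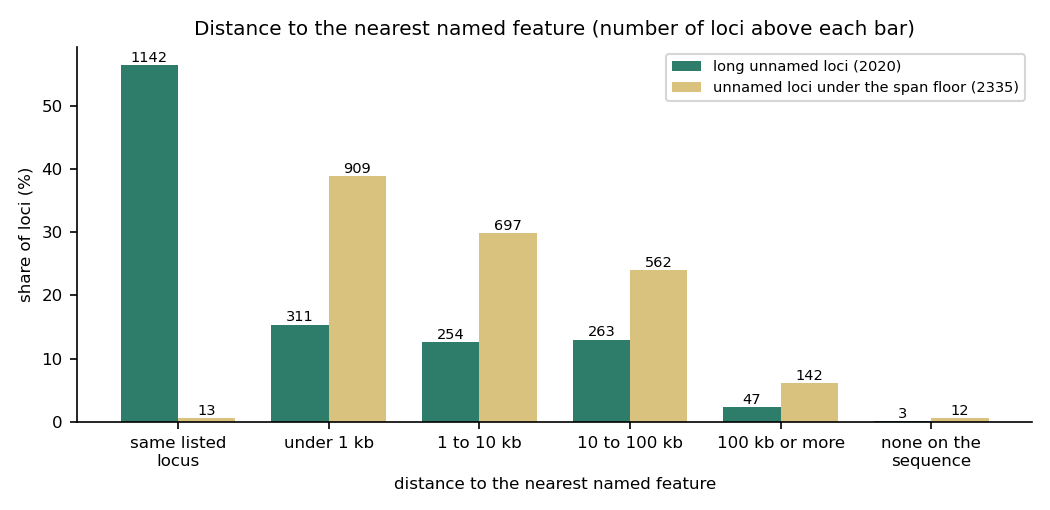
Share of loci, in percent, by distance to the nearest named feature, for the 2020 long unnamed loci (left bars) and the 2335 unnamed loci under 2000 bp with at least 1 FPKM in Sham (right bars), with the number of loci above each bar. Of the long loci, 1142 share a listed locus with a named feature, against 13 of the short ones. The span rule reads the listed locus, so this contrast follows at least in part from the choice of loci.

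The 10 highest loci in Sham lay mostly inside or around known genes and in part far exceeded them per length. MSTRG.85773 (chr5:144067415-144098207), in the listed locus of Oscp1, an organic solute carrier partner, had 1240.1 FPKM in 5/6Nx against 629 FPKM in Sham, and, as listed for the other surgery, 1011 FPKM in 1/3Nx against 1252 FPKM in Sham. Oscp1 itself had 4.56 FPKM in 5/6Nx against 4.76 FPKM in Sham, and 8.02 FPKM in 1/3Nx against 9.54 FPKM in Sham. Neither change of MSTRG.85773 passed in the authors' deposited tables (q = 0.54 in 5/6Nx, q = 0.688 in 1/3Nx).

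MSTRG.88289 (chr6:11644577-11737330), with Fbxo11, an F-box subunit of a ubiquitin ligase, and Msh6, a mismatch repair protein, had 266 FPKM in 5/6Nx against 396 FPKM in Sham, and 574 FPKM in 1/3Nx against 792 FPKM in Sham. MSTRG.26773, in the locus of Dars, the aspartyl-tRNA synthetase, had 228 FPKM in 5/6Nx against 149 FPKM in Sham, and 224 FPKM in 1/3Nx against 297 FPKM in Sham. Neither passed in either table. MSTRG.34423 showed the opposite order of levels: it had 92.1 FPKM in 5/6Nx against 84.8 FPKM in Sham and 89.7 FPKM in 1/3Nx against 169 FPKM in Sham, while Mdh1, the cytosolic malate dehydrogenase of the same locus, had 494 FPKM in 5/6Nx against 723 FPKM in Sham and 1042 FPKM in 1/3Nx against 1447 FPKM in Sham.

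MSTRG.35727 (chr15:26081232-26106616) was the highest locus that stood alone, 28298 bp from Naa30, a catalytic subunit of an N-terminal acetyltransferase. It had 55.3 FPKM in 5/6Nx against 62.6 FPKM in Sham and 157 FPKM in 1/3Nx against 126 FPKM in Sham, and did not pass in either table. MSTRG.9524 (chr1:221194191-221204325), 8982 bp from Frmd8 and assembled as 7 isoforms, had 61.3 FPKM in 5/6Nx against 46.3 FPKM in Sham and 114 FPKM in 1/3Nx against 92.96 FPKM in Sham. MSTRG.5776, 118787 bp from its nearest named feature, a U6 small nuclear RNA, had 22.6 FPKM in 5/6Nx against 52.1 FPKM in Sham and 87.8 FPKM in 1/3Nx against 104 FPKM in Sham. High sole loci thus occurred both within 10 kb of a gene and more than 100 kb from one.

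After either surgery the unnamed loci as a set had lower values than in Sham. The median deposited log2 fold change over the tested loci was -0.46 in 5/6Nx (1962 loci, 67.6% with a lower value) and -0.38 in 1/3Nx (1984 loci, 73.9% with a lower value), both surgery over Sham in the authors' deposited tables. Named features with at least 1 FPKM in Sham had medians of -0.17 in 5/6Nx and -0.01 in 1/3Nx, and short unnamed loci had -0.61 in 5/6Nx and -0.69 in 1/3Nx. The part that the choice by Sham level has in these medians was not tested. The negative median was present at several levels: in 1/3Nx it was -0.41 for loci at 1 to 2 FPKM in Sham, -0.32 at 10 to 50 FPKM and -0.45 at 50 FPKM or more. In the same bands of the authors' deposited table named features had medians of 0.30, -0.09 and -0.31. In 5/6Nx the unnamed loci at 50 FPKM or more stood at -0.08 and named features at -0.20.

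The medians differed between sole and shared loci in one surgery. In 1/3Nx sole loci had a median log2 fold change of -0.15 and loci shared with a named feature -0.53, both from the authors' deposited table. In 5/6Nx the medians were -0.47 for sole loci and -0.44 for shared ones. Where features overlap, the program must divide fragments between them. No strand setting of the counting is given in the sources used here. Values of shared loci are therefore read with caution, and the part of either point in these medians was not tested.

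**Figure D2:**
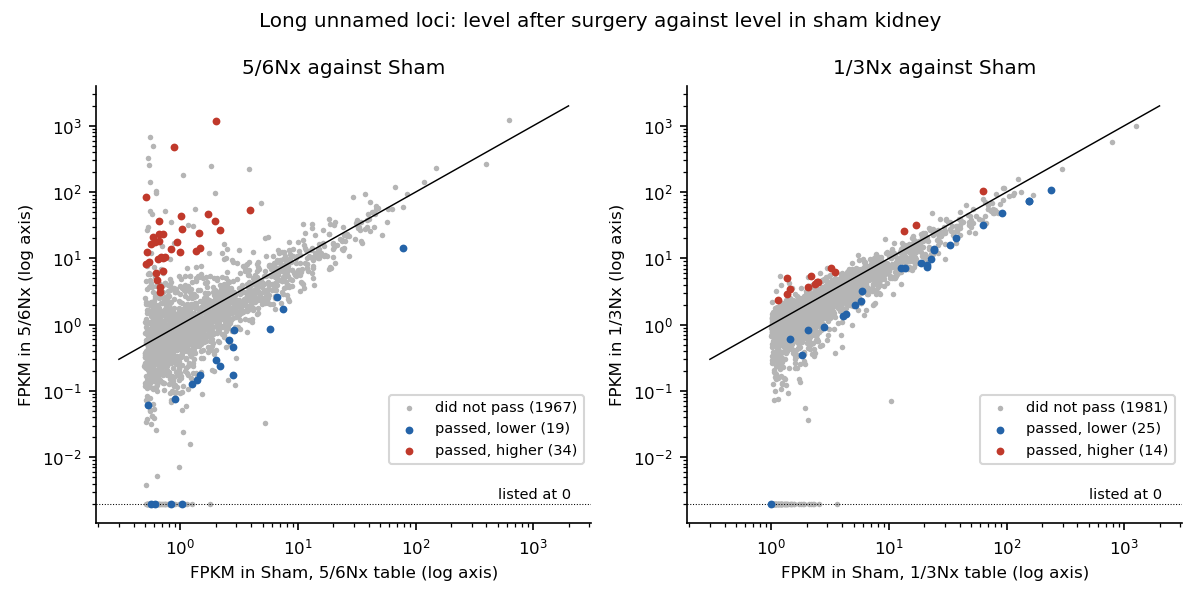
Level after surgery against level in Sham for each of the 2020 long unnamed loci, in FPKM on log axes, 5/6Nx on the left and 1/3Nx on the right; the line marks equal values, and loci listed at 0 lie on the dotted line. Red and blue points passed the authors' test (34 higher and 19 lower in 5/6Nx, 14 higher and 25 lower in 1/3Nx), and grey points did not pass or were not tested.

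In 1/3Nx against Sham 39 of 1984 tested loci passed at q under 0.05 in the authors' deposited table, 14 higher and 25 lower. These are 0.706% and 1.26% of the loci tested, while 3.96% of all tested features were higher and 2.44% lower (6.4% in either direction), and among tested features with at least 1 FPKM in Sham 3.2% were higher and 2.65% lower (5.85% in either direction). In either direction 1.97% of the unnamed loci passed. At an unadjusted p under 0.05 there were 143 loci. Both shares lay below those of the background, a difference that was not tested. Of the loci that passed, 11 of the 14 higher and 16 of the 25 lower were the sole feature of their locus. Sole loci made up 751 of the 1984 tested. In 5/6Nx 11 of the 34 higher and 11 of the 19 lower were sole, as were 748 of the 1962 tested. These shares were not tested against each other. The 2 comparisons share the Sham rats, so values for both surgeries are set side by side with no measure of likeness between them.

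The loci that fell in 1/3Nx included some of the highest and some near the floor. Their Sham levels ran from 1.00 to 237 FPKM with a median of 18.6 FPKM. MSTRG.116024 (chrX:153539667-154051181), in the listed locus of Aff2, a nuclear protein gene of the AF4 family, had 108 FPKM in 1/3Nx against 237 FPKM in Sham, a log2 fold change of -1.13 in the authors' deposited table (q = 0.0114). In 5/6Nx it had 143 FPKM against 119 FPKM in Sham (q = 0.873 in the authors' deposited table). Aff2 stood at 0.0434 FPKM in 1/3Nx and 0.0119 FPKM in Sham, far below the level of the locus in both groups.

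MSTRG.4605 (chr1:98915866-99146038) had 73.5 FPKM in 1/3Nx against 156 FPKM in Sham (log2 -1.08, q = 0.00183) and 14.5 FPKM in 5/6Nx against 77.8 FPKM in Sham (log2 -2.42, q = 0.011), both from the authors' deposited tables. It was assembled as 6 isoforms in a listed locus of 32 features that holds Vom2r38, a vomeronasal receptor gene at 0.00261 FPKM in 1/3Nx and 0.0135 FPKM in Sham. MSTRG.94204, in the locus of Nfic, a nuclear factor I transcription factor gene, also had 73.5 FPKM in 1/3Nx against 156 FPKM in Sham (q = 0.0143 in the authors' deposited table), but 60.02 FPKM in 5/6Nx against 78.02 FPKM in Sham (q = 0.84).

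Some of the loci that fell lay under 1 kb from a named gene. MSTRG.9774 (chr1:224833631-224835802) lies 372 bp from Slc22a6, the organic anion transporter OAT1 of the proximal tubule. It had 7.12 FPKM in 1/3Nx against 12.8 FPKM in Sham, and Slc22a6 had 277 FPKM in 1/3Nx against 485 FPKM in Sham; both passed in the authors' deposited table (q = 0.0134 for the locus, q = 0.014 for Slc22a6). In 5/6Nx the locus had 5.15 FPKM against 6.35 FPKM in Sham, and Slc22a6 had 269 FPKM against 242 FPKM in Sham; neither passed.

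MSTRG.76119 (chr4:85182415-85186302) lies 341 bp past the end of Ggct, the gamma-glutamylcyclotransferase of glutathione breakdown. It had 3.20 FPKM in 1/3Nx against 5.90 FPKM in Sham (log2 -0.88, q = 0.00598 in the authors' deposited table), and Ggct had 310.2 FPKM in 1/3Nx against 628.4 FPKM in Sham (log2 -1.02). In 5/6Nx the locus had 0.840 FPKM against 2.93 FPKM in Sham and Ggct had 137 FPKM against 314 FPKM in Sham, and neither passed.

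MSTRG.61366 (chr2:225848258-225850804) lies 384 bp from Gclm, the modifier subunit of glutamate-cysteine ligase, the enzyme of the first step of glutathione synthesis. It had 0.347 FPKM in 1/3Nx against 1.81 FPKM in Sham (log2 -2.38, q = 0.00183) and 0.0768 FPKM in 5/6Nx against 0.903 FPKM in Sham (log2 -3.56, q = 0.0315), both from the authors' deposited tables. Gclm had 517 FPKM in 1/3Nx against 547 FPKM in Sham and 103 FPKM in 5/6Nx against 272 FPKM in Sham, and passed in neither table. MSTRG.99316, 832 bp from Ttll8, a tubulin glycylase gene, had 1.99 FPKM in 1/3Nx against 5.14 FPKM in Sham and 0.579 FPKM in 5/6Nx against 2.57 FPKM in Sham (q = 0.0251 and q = 0.0202 in the authors' deposited tables). Ttll8 had 3.58 FPKM in 1/3Nx against 9.36 FPKM in Sham and 0.175 FPKM in 5/6Nx against 4.66 FPKM in Sham, and passed in both tables.

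Other loci that fell in 1/3Nx had no named feature within 1 kb. MSTRG.22943 (chr12:15462956-15465099), 19678 bp from Sdk1, a cell adhesion gene, had 1.45 FPKM in 1/3Nx against 4.35 FPKM in Sham and 0.241 FPKM in 5/6Nx against 2.17 FPKM in Sham. MSTRG.64039 (chr20:20790433-20793439), 3970 bp from a snoRNA, SNORA24, had 1.36 FPKM in 1/3Nx against 4.03 FPKM in Sham and 0.294 FPKM in 5/6Nx against 2.01 FPKM in Sham. Both passed in each of the authors' deposited tables, at q = 0.00471 and q = 0.00598 in 1/3Nx and at q = 0.0461 and q = 0.0398 in 5/6Nx. MSTRG.66799, a sole locus of 9 isoforms on chr3:23267375-23273298, had 7.45 FPKM in 1/3Nx against 21.2 FPKM in Sham (q = 0.00183 in the authors' deposited table) and 4.34 FPKM in 5/6Nx against 10.6 FPKM in Sham (q = 0.155). MSTRG.102943, 106565 bp from Neo1, a netrin receptor family gene, had 48.2 FPKM in 1/3Nx against 91.1 FPKM in Sham (q = 0.0186) and 46.2 FPKM in 5/6Nx against 45.6 FPKM in Sham. MSTRG.86888, one of the 3 loci nearest the floor, was listed at 0 in 1/3Nx and at 1.00 FPKM in Sham.

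The 14 loci that rose in 1/3Nx had Sham levels of 1.13 to 63.6 FPKM. Their Sham median of 2.41 FPKM was near the 2.23 FPKM of all 2020 loci. In 1/3Nx they reached a median of 4.73 FPKM. The largest rise was that of MSTRG.8665 (chr1:203159295-203386208), which had 5.10 FPKM in 1/3Nx against 1.36 FPKM in Sham and 3.76 FPKM in 5/6Nx against 0.676 FPKM in Sham (log2 1.90 and 2.47, q = 0.033 and q = 0.0156 in the authors' deposited tables). MSTRG.9941 was the highest riser, with 105 FPKM in 1/3Nx against 63.6 FPKM in Sham (log2 0.72, q = 0.0209 in the authors' deposited table), and 37.97 FPKM in 5/6Nx against 31.7 FPKM in Sham. It is a sole locus 22187 bp from Ms4a8, a gene of the family of CD20-like membrane proteins, which stood at 0.031 FPKM in 1/3Nx and 0.0147 FPKM in Sham.

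Several of the loci that rose lay under 1 kb from a named gene. MSTRG.88774 (chr6:24182030-24184283), 164 bp from Lbh, a transcriptional cofactor gene, had 32.2 FPKM in 1/3Nx against 16.9 FPKM in Sham (log2 0.93, q = 0.00183 in the authors' deposited table). Lbh itself had 31.1 FPKM in 1/3Nx against 12.01 FPKM in Sham (q = 0.056). MSTRG.88817, 214 bp from Fosl2, a subunit of the AP-1 transcription factor, had 6.17 FPKM in 1/3Nx against 3.47 FPKM in Sham, and Fosl2 had 3.66 FPKM in 1/3Nx against 2.18 FPKM in Sham.

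MSTRG.38623, 61 bp from Gpc6, a glypican of the cell surface, had 2.85 FPKM in 1/3Nx against 1.35 FPKM in Sham, with Gpc6 at 1.53 FPKM in 1/3Nx and 0.828 FPKM in Sham. MSTRG.92258, 162 bp from Vash1, an angiogenesis inhibitor and tubulin carboxypeptidase gene, had 2.38 FPKM in 1/3Nx against 1.13 FPKM in Sham. MSTRG.79022, 606 bp from Ccnd2, the cell cycle protein cyclin D2, had 4.05 FPKM in 1/3Nx against 2.35 FPKM in Sham. Each of these loci passed in the authors' deposited table, while the neighbouring genes had higher values that did not pass (q = 0.24 for Gpc6, q = 0.23 for Vash1, q = 0.36 for Ccnd2, q = 0.34 for Fosl2). None of these 5 loci passed in 5/6Nx, where their values were also above Sham.

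**Figure D3:**
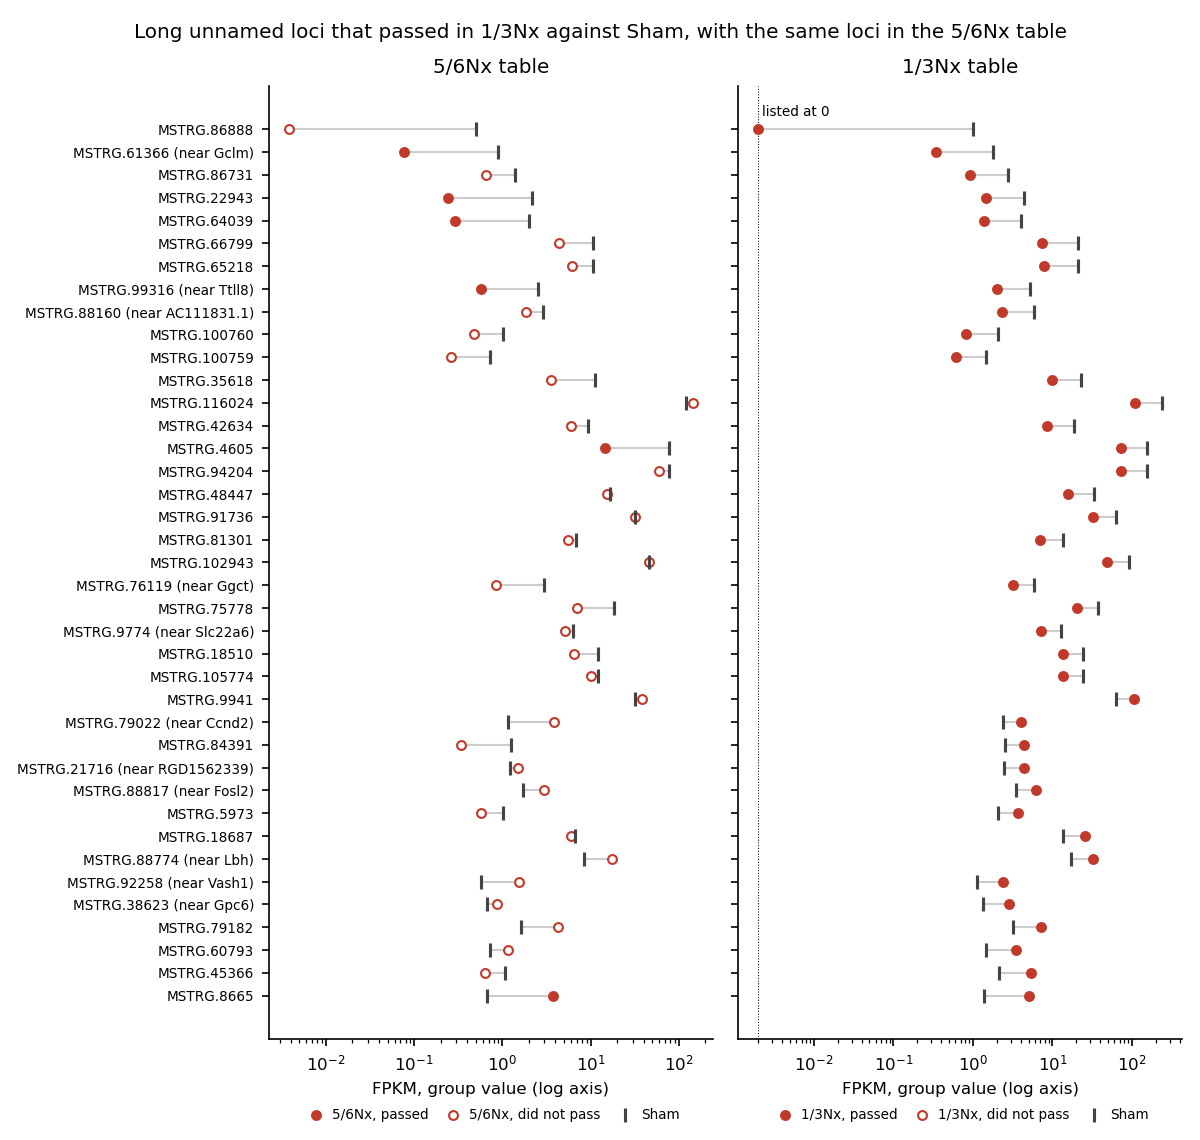
Group values in FPKM, on log axes, of the 39 long unnamed loci that passed in 1/3Nx against Sham (right) and of the same loci in the 5/6Nx table (left); circles are the surgery group, filled where the authors' test passed, and bars are Sham. The upper 25 loci lie below Sham in 1/3Nx and the lower 14 above it; the 2 tables have different scales.

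In 5/6Nx against Sham 53 of 1962 tested loci passed in the authors' deposited table, 34 higher (1.73%) and 19 lower (0.968%). The background there was large: 57.9% of all 103823 tested features were called higher and 0.137% lower (58% in either direction), and 58038 of the 60122 called higher were unnamed and listed at 0 in Sham. Among tested features with at least 1 FPKM in Sham 2.28% were higher and 0.708% lower (2.99% in either direction), against 2.7% of the unnamed loci in either direction. Because so many features passed, a p of up to 0.02895 was called in 5/6Nx, against 0.0032 in 1/3Nx. With q recomputed over the tested features with at least 1 FPKM in Sham, 7 of the 53 calls were left in 5/6Nx and all 39 in 1/3Nx. With q recomputed over unnamed features alone, 26 of the 39 calls of 1/3Nx were left, and MSTRG.8665, MSTRG.99316, MSTRG.92258 and MSTRG.79022 were among the 13 lost, at q = 0.0739, q = 0.0534, q = 0.0771 and q = 0.104. An unadjusted p under 0.05 was reached by 64 loci in 5/6Nx.

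The loci that kept their call in 5/6Nx were 5 higher and 2 lower. MSTRG.7546 (chr1:175976492-175982494), a sole locus of 7 isoforms 67743 bp from the nearest named feature, had 10.6 FPKM in 5/6Nx against 0.688 FPKM in Sham (log2 3.95, q = 9.2e-05 in the authors' deposited table) and 1.67 FPKM in 1/3Nx against 1.38 FPKM in Sham. MSTRG.39975, 286 bp from Atp6v1b2, a subunit of the vacuolar proton pump, had 23.4 FPKM in 5/6Nx against 0.659 FPKM in Sham and 0.943 FPKM in 1/3Nx against 1.32 FPKM in Sham. Atp6v1b2 had 66.3 FPKM in 5/6Nx against 74.7 FPKM in Sham and did not pass.

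MSTRG.75112 (chr4:58607258-58693295), 64 bp from Mkln1, the intracellular protein muskelin, had 46.4 FPKM in 5/6Nx against 1.72 FPKM in Sham, where Mkln1 had 11.0 FPKM in 5/6Nx against 14.3 FPKM in Sham. MSTRG.99844, in a listed locus of 15 features with Spats2, had 18.4 FPKM in 5/6Nx against 0.655 FPKM in Sham. MSTRG.41227, in the locus of Ubxn8, an endoplasmic reticulum protein gene, had 12.5 FPKM in 5/6Nx against 0.522 FPKM in Sham. Ubxn8 itself passed as higher, with 36.4 FPKM in 5/6Nx against 5.66 FPKM in Sham (log2 2.69, q = 0.00485 in the authors' deposited table). The log2 fold changes of the 3 loci were 4.75, 4.81 and 4.58 in the authors' deposited table, and in 1/3Nx they had 2.99, 0.772 and 0.887 FPKM against 3.45, 1.31 and 1.04 FPKM in Sham. The 2 lower ones, MSTRG.65227 and MSTRG.67171, were listed at 0 in 5/6Nx, against 1.03 and 0.613 FPKM in Sham, and had 0.957 and 0.326 FPKM in 1/3Nx against 2.07 and 1.21 FPKM in Sham.

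Changes in 5/6Nx were large where they passed. The 34 loci that rose had a median of 17.0 FPKM in 5/6Nx against 0.707 FPKM in Sham, and their smallest log2 fold change was 2.199 in the authors' deposited table; in 1/3Nx the range over the 14 that rose was 0.72 to 1.90. The highest unadjusted p called by the authors' test was 0.02895 in 5/6Nx and 0.0032 in 1/3Nx, so these ranges rest on unlike cutoffs. At least 8-fold higher values were found for 68 loci in 5/6Nx, of which 31 passed, and for none in 1/3Nx. The same count was not made over other features, so nothing is read from it. After either surgery 63 of the 2020 loci were listed at 0. So were 264 of the 2335 short unnamed loci in 5/6Nx and 241 in 1/3Nx. Of the 11812 named features with at least 1 FPKM in Sham, 40 were listed at 0 after either surgery. With 1 value per group it cannot be seen whether such a value came from all 6 rats or from 1 library.

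Among the loci with 8-fold or higher values in 5/6Nx, the highest one and its neighbour in the same listed locus stood under 1 FPKM in 1/3Nx. MSTRG.114025 and MSTRG.114026 share a listed locus on chrX:61103010-61151601 with Mageb4, a gene of the MAGE family known from testis. MSTRG.114025 had 1170.2 FPKM in 5/6Nx against 2.02 FPKM in Sham (log2 9.18, q = 0.026 in the authors' deposited table) and 0.459 FPKM in 1/3Nx against 4.002 FPKM in Sham. MSTRG.114026 had 471 FPKM in 5/6Nx against 0.875 FPKM in Sham (log2 9.07, q = 0.0242) and 0.151 FPKM in 1/3Nx against 1.73 FPKM in Sham. MSTRG.110535, at 679 FPKM in 5/6Nx against 0.549 FPKM in Sham, had the larger fold but did not pass (log2 10.27, q = 0.0868 in the authors' deposited table). Of MSTRG.114025, MSTRG.114026 and MSTRG.110535 none kept or gained a call with q recomputed over features with at least 1 FPKM in Sham. Rmrp, a nuclear and mitochondrial noncoding RNA and the sole gene of the noncoding RNA list with a feature, had 225 FPKM in 5/6Nx against 12.7 FPKM in Sham, and 5.81 FPKM in 1/3Nx against 25.3 FPKM in Sham; its part in these values was not tested.

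Other loci that rose in 5/6Nx shared a locus with a gene that passed, lay by genes that did not, or stood apart. MSTRG.49964, in the locus of Gnao1, a G protein alpha subunit, had 5.91 FPKM in 5/6Nx against 0.617 FPKM in Sham (log2 3.26, q = 0.0223), and Gnao1 had 3.30 FPKM in 5/6Nx against 0.220 FPKM in Sham (log2 3.91, q = 9.2e-05, both from the authors' deposited table). MSTRG.82273, 537 bp from Aco1, the iron regulatory aconitase, had 23.3 FPKM in 5/6Nx against 0.716 FPKM in Sham, with Aco1 at 60.6 FPKM in 5/6Nx and 58.8 FPKM in Sham. MSTRG.99621, in the locus of Ano6, a phospholipid scramblase, had 28.1 FPKM in 5/6Nx against 1.03 FPKM in Sham, with Ano6 at 8.01 FPKM in 5/6Nx and 9.95 FPKM in Sham. MSTRG.26701, a sole locus on chr13:43464761-43478434 and 15915 bp from the nearest named feature, had 53.7 FPKM in 5/6Nx against 3.89 FPKM in Sham and 8.47 FPKM in 1/3Nx against 7.78 FPKM in Sham. The last 3 passed in the authors' deposited table, at q = 0.00896, q = 0.00133 and q = 0.000717, and all 4 lost the call with q recomputed over features with at least 1 FPKM in Sham.

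The loci that fell in 5/6Nx included sole loci and loci that shared a listed locus with a named gene. MSTRG.70103 (chr3:117421251-117507719) shares its listed locus with Slc12a1, the sodium-potassium-chloride cotransporter of the thick ascending limb. It had 0.862 FPKM in 5/6Nx against 5.77 FPKM in Sham (log2 -2.74, q = 0.00572 in the authors' deposited table) and 5.83 FPKM in 1/3Nx against 11.6 FPKM in Sham. Slc12a1 had 52.4 FPKM in 5/6Nx against 112 FPKM in Sham and 299.9 FPKM in 1/3Nx against 226 FPKM in Sham, and passed in neither table.

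MSTRG.81445, a sole locus 16206 bp from Rmdn1, had 0.176 FPKM in 5/6Nx against 2.79 FPKM in Sham and 4.74 FPKM in 1/3Nx against 5.59 FPKM in Sham. MSTRG.15362, in the locus of Slc6a4, the serotonin transporter, had 0.129 FPKM in 5/6Nx against 1.26 FPKM in Sham and 0.953 FPKM in 1/3Nx against 2.53 FPKM in Sham. MSTRG.34437, in the locus of Ehbp1, an endocytic adaptor gene, had 0.458 FPKM in 5/6Nx against 2.78 FPKM in Sham and 3.92 FPKM in 1/3Nx against 5.58 FPKM in Sham. All 3 passed in 5/6Nx in the authors' deposited table (q = 0.0189, q = 0.0297 and q = 0.0148), and none in 1/3Nx. These 5/6Nx calls, too, were lost with q recomputed over features with at least 1 FPKM in Sham. So were the 5/6Nx calls of the loci that passed in both tables: MSTRG.22943, MSTRG.64039, MSTRG.61366, MSTRG.99316, MSTRG.4605 and MSTRG.8665. The 1/3Nx calls of those loci were kept with that adjustment.

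Changes of loci close to a gene were set beside those of the gene, by distance and by side. For loci under 1 kb from a named feature, the log2 fold change of the locus and that of its neighbour correlated at Pearson r = 0.32 in 5/6Nx (245 pairs) and 0.38 in 1/3Nx (246 pairs); at 10 to 100 kb r was 0.03 (125 pairs) and 0.11 (126 pairs). For loci in the same listed locus as a named feature r was 0.12 (819 pairs) and 0.17 (822 pairs). Where the neighbour was the sole feature of its locus and its strand could be read from RefSeq (GRCr8), with gene order checked, 57 loci lay past the gene's end, 32 before its start and 12 could not be settled. Past the end r was 0.66 in 5/6Nx and 0.74 in 1/3Nx (46 pairs); before the start r was 0.05 in 5/6Nx and 0.09 in 1/3Nx (30 pairs). Pairs were formed where both were tested and the gene had at least 1 FPKM in Sham. Among others, this leaves out MSTRG.39767 past Comp, a cartilage matrix gene that passed as higher in 5/6Nx (log2 6.45, beside -0.34 for the locus, in the authors' deposited table). Also left out were MSTRG.19535 before Mis18a and MSTRG.30015 before Nsl1. Both genes passed as higher in 5/6Nx (log2 4.63 and 4.76, beside -0.27 and -0.32 for the loci, in the authors' deposited table). The median absolute difference between the log2 fold changes of locus and gene was 0.509 past the end and 0.502 before the start in 5/6Nx, and 0.176 past the end and 0.421 before the start in 1/3Nx. A wider choice, in which the neighbour had only to be the sole named feature of its locus, gave 0.58 and 0.60 past the end (86 pairs) and 0.21 and 0.01 before the start (37 pairs). All pairs come from the same libraries and are described without a test, and the difference between the sides was not tested.

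**Figure D4:**
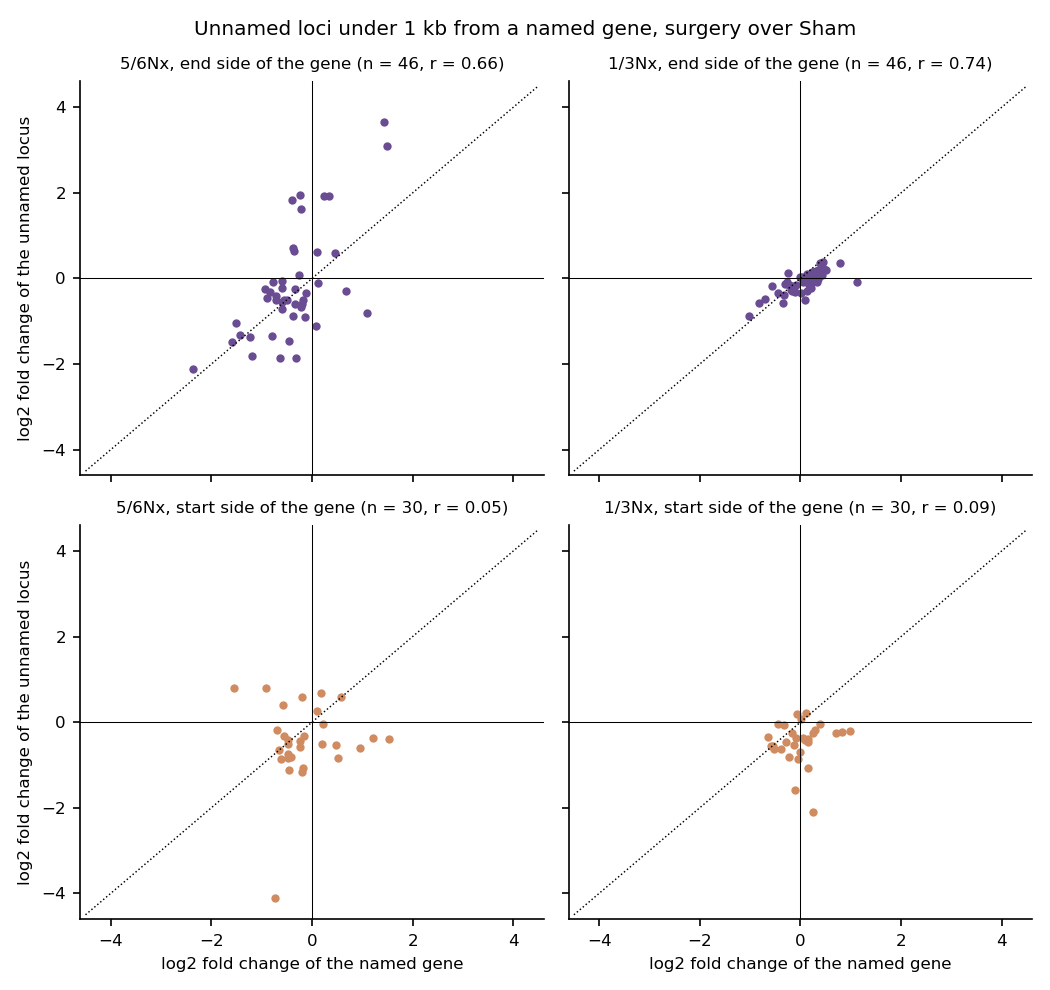
Log2 fold change of surgery over Sham of an unnamed locus (vertical axis) against that of the named gene under 1 kb away (horizontal axis), for 46 pairs past the end of the gene (top) and 30 pairs before its start (bottom), 5/6Nx on the left and 1/3Nx on the right; the dotted line marks equal change. Past the end Pearson r is 0.66 and 0.74, and before the start 0.05 and 0.09.

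The loci named beside their flanking genes were picked after values had been seen. Past the end, changes near those of the gene and changes far from them both occurred. MSTRG.83305 (chr5:78249448-78251559), 90 bp past Slc31a1, the copper importer CTR1, had 22.8 FPKM in 5/6Nx against 24.5 FPKM in Sham and 44.2 FPKM in 1/3Nx against 49.1 FPKM in Sham. Slc31a1 had 29.2 FPKM in 5/6Nx against 26.9 FPKM in Sham and 50.7 FPKM in 1/3Nx against 54.0 FPKM in Sham. MSTRG.106894, 61 bp past Mep1a, the brush border protease meprin alpha, had 1.79 FPKM in 5/6Nx against 4.595 FPKM in Sham and 7.49 FPKM in 1/3Nx against 9.22 FPKM in Sham, with Mep1a log2 fold changes of -1.24 and -0.17 beside -1.36 and -0.30 for the locus in the authors' deposited tables.

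MSTRG.76099, 248 bp past Mturn, had a log2 fold change of -1.32 in 5/6Nx and -0.31 in 1/3Nx, beside -1.42 and -0.10 for Mturn (the authors' deposited tables). MSTRG.112824, 134 bp past Rgn, the calcium-binding protein regucalcin, had 0.299 FPKM in 5/6Nx against 1.304 FPKM in Sham, where Rgn had 32.9 FPKM in 5/6Nx against 170 FPKM in Sham. MSTRG.78426, 571 bp past Tmem72, had 2.07 FPKM in 5/6Nx against 5.80 FPKM in Sham, where Tmem72 had 2.14 FPKM in 5/6Nx against 6.47 FPKM in Sham. None of these loci or genes passed in either table. The locus past a gene's end that passed in 5/6Nx was MSTRG.67806, 261 bp past Ppig, the nuclear cyclophilin G. It had 12.5 FPKM in 5/6Nx against 0.988 FPKM in Sham (q = 0.0293 in the authors' deposited table). That call was lost with q recomputed over features with at least 1 FPKM in Sham. Ppig had 20.8 FPKM in 5/6Nx against 7.70 FPKM in Sham and did not pass. Wide differences in 5/6Nx included MSTRG.88539 at 1.94 beside Mtm1 at -0.23, MSTRG.68288 at 1.83 beside Dusp19 at -0.40, MSTRG.52604 at 1.92 beside Irf2bp2 at 0.24 and MSTRG.42847 at 1.93 beside Ddx46 at 0.34, all as log2 fold changes in the authors' deposited table. MSTRG.49557, 563 bp past Cmtm3, also differed from its gene, with log2 fold changes of -0.81 in 5/6Nx and -0.08 in 1/3Nx beside 1.09 and 1.13 for Cmtm3, which passed in 1/3Nx (the authors' deposited tables).

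Before the start, too, loci both like and unlike their gene occurred. MSTRG.32070 (chr14:45978933-45982091), 152 bp before Rell1, a gene of the RELT receptor family, had 22.5 FPKM in 5/6Nx against 14.1 FPKM in Sham and 23.6 FPKM in 1/3Nx against 28.2 FPKM in Sham. Rell1 had 4.79 FPKM in 5/6Nx against 4.24 FPKM in Sham and 13.9 FPKM in 1/3Nx against 8.54 FPKM in Sham. MSTRG.94551, 547 bp before Cyp4f1, a fatty acid hydroxylase of the cytochrome P450 family, had 18.99 FPKM in 5/6Nx against 10.99 FPKM in Sham, where Cyp4f1 had 29.2 FPKM in 5/6Nx against 54.9 FPKM in Sham. In 1/3Nx their log2 fold changes were close, at -0.55 for the locus and -0.54 for Cyp4f1 (the authors' deposited table). MSTRG.6628, 274 bp before Picalm, a clathrin assembly gene, had 9.05 FPKM in 1/3Nx against 14.6 FPKM in Sham, where Picalm had 117 FPKM in each. None of these passed in either table.

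The promoters of the genes with a locus before the start were read from RefSeq (GRCr8), 300 bases around the annotated start. Of these 32 genes 28 (87.5%) had at least 10 CG pairs there, as had 44 of 57 (77.2%) with a locus past the end, 83.2% of 7732 named features with at least 1 FPKM in Sham and 45.6% of all 24206 promoters. The letters TATAAA, searched on both strands, were in 6.25%, 3.51%, 6.45% and 14.3% of these windows. The share in the start side group was thus near that of expressed genes in general. The windows of Rell1 and Cyp4f1 are shown because their neighbouring loci are the highest of the start side, and they hold 31 and 3 CG pairs (median 25 and range 3 to 50 over the 32 genes), which are in capitals. Rell1 is at chr14:44672046-44672345 on the + strand and Cyp4f1 at chr7:12672504-12672803 on the - strand of GRCr8.
Rell1: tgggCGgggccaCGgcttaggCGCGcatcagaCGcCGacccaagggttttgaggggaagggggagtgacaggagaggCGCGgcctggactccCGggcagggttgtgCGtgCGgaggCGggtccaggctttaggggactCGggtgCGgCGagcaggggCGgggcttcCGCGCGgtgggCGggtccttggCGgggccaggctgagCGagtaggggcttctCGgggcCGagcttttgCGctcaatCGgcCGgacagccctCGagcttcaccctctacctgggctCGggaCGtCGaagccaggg
Cyp4f1: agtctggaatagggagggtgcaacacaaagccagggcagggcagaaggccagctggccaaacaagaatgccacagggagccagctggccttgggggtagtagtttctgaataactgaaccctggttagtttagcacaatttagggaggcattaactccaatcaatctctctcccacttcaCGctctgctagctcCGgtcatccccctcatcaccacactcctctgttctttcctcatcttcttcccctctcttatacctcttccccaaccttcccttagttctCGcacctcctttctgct

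The 26 loci with a named miRNA are described as a set and then singly. The 26 loci sat in 23 listed loci with 29 miRNA features, of which 28 were listed at 0 in Sham, so the named miRNA feature carried no value there while the unnamed locus did. These FPKM describe the long locus and not the mature miRNA. Values were lower than Sham for 16 and higher for 10 in 5/6Nx, and lower for 20 and higher for 6 in 1/3Nx, with median log2 fold changes of -0.27 and -0.60 in the authors' deposited tables. By the authors' q, 1 of 26 passed in 5/6Nx and 0 in 1/3Nx, where 2.99% and 5.85% of tested features with at least 1 FPKM in Sham passed, and with 26 loci nothing is read from these counts; at an unadjusted p under 0.05 there were 2 in each.

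The locus of the kidney miRNAs Mir192 and Mir194-2, MSTRG.9573 (chr1:221633173-221639438), had 2.46 FPKM in 5/6Nx and 2.46 FPKM in Sham. In the other table it had 2.86 FPKM in 1/3Nx against 4.93 FPKM in Sham (log2 -0.78, unadjusted p = 0.02925 in the authors' deposited table), which did not pass by q. MSTRG.48292 (chr18:56968113-56972227), with Mir143 and Mir145 of smooth muscle, had 1.526 FPKM in 5/6Nx against 1.50002 FPKM in Sham and 4.09 FPKM in 1/3Nx against 2.99 FPKM in Sham. MSTRG.10397, with Mir204, had 1.72 FPKM in 5/6Nx against 1.64 FPKM in Sham and 4.69 FPKM in 1/3Nx against 3.30 FPKM in Sham.

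Of this kind MSTRG.68050, in a HOX cluster, was the highest in Sham. MSTRG.68050 (chr3:61631991-61670306), with Mir10b, Hoxd3 and Hoxd4, had 31.7 FPKM in 5/6Nx against 20.3 FPKM in Sham and 22.5 FPKM in 1/3Nx against 40.4 FPKM in Sham (unadjusted p = 0.58335 and p = 0.0474 in the authors' deposited tables). MSTRG.16674, with Mir10a, had 10.2 FPKM in 5/6Nx against 14.9 FPKM in Sham and 16.5 FPKM in 1/3Nx against 29.7 FPKM in Sham. MSTRG.16677, in the same listed locus, had 3.68 FPKM in 5/6Nx against 8.44 FPKM in Sham. In the other table MSTRG.16677 had 9.84 FPKM in 1/3Nx against 16.9 FPKM in Sham. MSTRG.112860, with the Mir221 and Mir222 pair, had 0.326 FPKM in 5/6Nx against 0.549 FPKM in Sham and 1.73 FPKM in 1/3Nx against 1.11 FPKM in Sham. MSTRG.87740 (chr5:173466565-173517585), in the locus of Mir200b, Mir3548 and Mir429, members of epithelial miRNA families among them, had 3.75 FPKM in 5/6Nx against 0.576 FPKM in Sham (log2 2.70, unadjusted p = 0.03035 in the authors' deposited table, not passed by q) and 1.208 FPKM in 1/3Nx against 1.155 FPKM in Sham. The one that passed was MSTRG.86647, with Mir6333, at 36.7 FPKM in 5/6Nx against 0.656 FPKM in Sham (log2 5.81, q = 0.00335 in the authors' deposited table) and 0.893 FPKM in 1/3Nx against 1.31 FPKM in Sham. That call was lost with q recomputed over features with at least 1 FPKM in Sham.

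**Figure D5:**
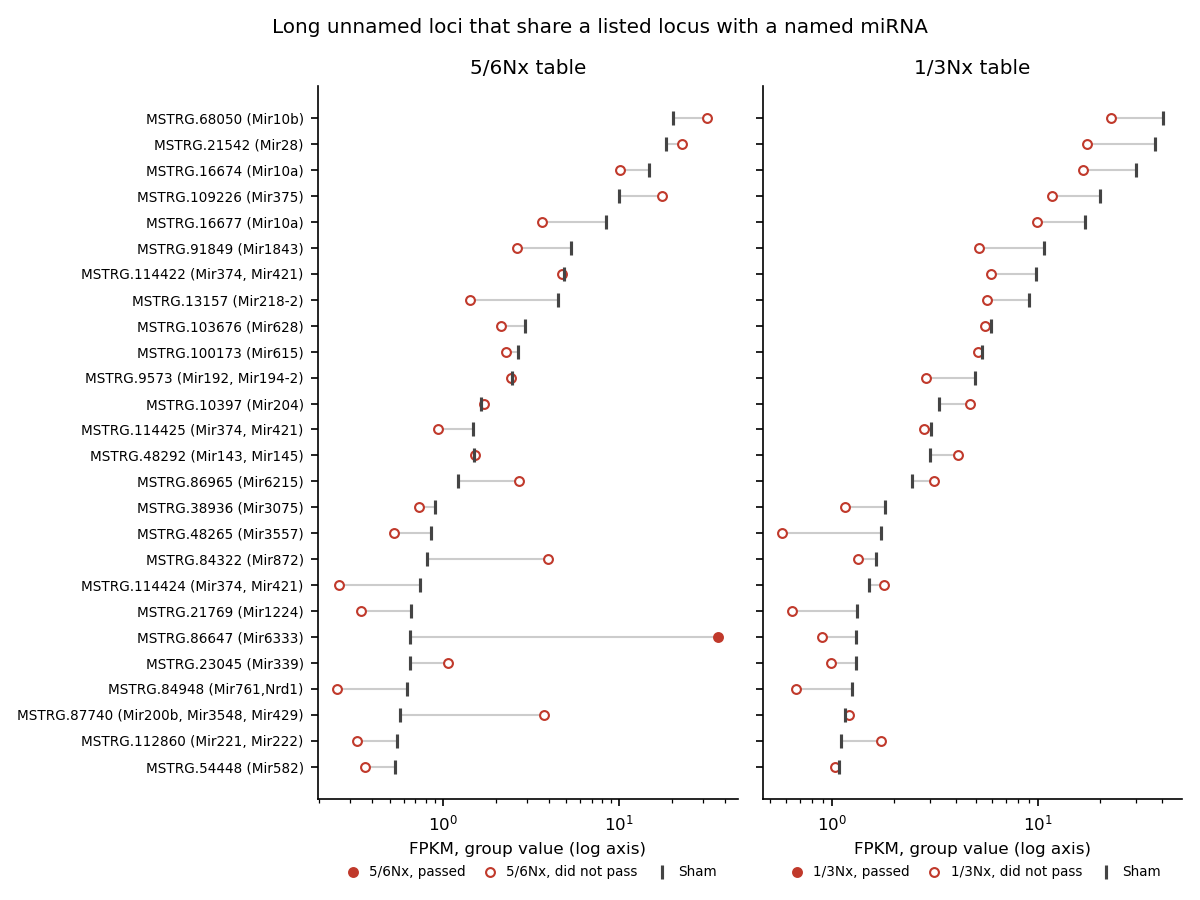
Group values in FPKM, on log axes, of the 26 long unnamed loci that share a listed locus with a named miRNA, 5/6Nx on the left and 1/3Nx on the right; circles are the surgery group, filled where the authors' test passed, and bars are Sham. In 1/3Nx 20 of 26 lie below Sham, and MSTRG.86647 in 5/6Nx is the filled circle.

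Loci that share their listed interval with a snoRNA formed a larger group; whether the snoRNA lies within their transcript was not tested. The 80 loci with a snoRNA lay in 66 listed loci, and 71 of 76 snoRNA features in them were listed at 0 in Sham. Their median log2 fold change was -0.22 in 5/6Nx and -0.56 in 1/3Nx in the authors' deposited tables, and 1 locus of 80 passed, lower in 1/3Nx, where 2.65% of tested features with at least 1 FPKM in Sham and 1.26% of the tested long unnamed loci were lower. That locus, MSTRG.48447 (chr18:60772135-61071794), with SNORA42 and Alpk2, an alpha kinase gene, had 15.7 FPKM in 1/3Nx against 32.9 FPKM in Sham (q = 0.00944) and 15.2 FPKM in 5/6Nx against 16.5 FPKM in Sham. The highest was MSTRG.72242 (chr3:163787100-163849373), with SNORD12 features and Znfx1, a helicase-like zinc finger gene, which had 117 FPKM in 5/6Nx against 67.1 FPKM in Sham and 98.8 FPKM in 1/3Nx against 134 FPKM in Sham. MSTRG.86251, without a gene symbol in its locus and with SNORA16, had 56.5 FPKM in 5/6Nx against 46.5 FPKM in Sham and 76.0 FPKM in 1/3Nx against 92.98 FPKM in Sham.

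The longest listed spans belonged to groups of overlapping features. The 4 longest loci, MSTRG.92417, MSTRG.92380, MSTRG.92418 and MSTRG.92398, share chr6:112132988-114067564, which is 1934576 bp long, holds 65 features and includes Nrxn3, the synaptic adhesion gene neurexin 3. They had 0.907, 0.778, 0.195 and 0 FPKM in 5/6Nx against 1.06, 1.08, 0.915 and 0.561 FPKM in Sham. In the other table they had 1.20, 0.817, 2.08 and 0 FPKM in 1/3Nx against 2.13, 2.15, 1.84 and 1.102 FPKM in Sham, and none passed. MSTRG.35266 (chr15:15697286-16863161), the next in length and assembled as 8 isoforms, was well expressed, with 19.2 FPKM in 5/6Nx against 23.9 FPKM in Sham and 35.1 FPKM in 1/3Nx against 47.8 FPKM in Sham, and did not pass in either table.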

How the data were processed

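Total RNA of 17 rat kidneys was sequenced from both ends with a TruSeq Stranded Total RNA kit, per the labels' protocols, whose wording also speaks of small RNA. Cutadapt, FastQC, TopHat2 2.1.1, StringTie, Cufflinks 2.2.1 and build rn5 appear in the submitters' processing notes, without roles or order. For each surgery the authors deposited gene and isoform tables, which per the file headers hold 1 FPKM per group, log2 of the fold change (surgery over Sham), a p-value and a q-value. The deposited sequencing summary gives each library's count of reads, with the percent of reads mapped and of high-quality bases as percent values, per the file headers. Columns of other samples numbered 0.

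The tables hold group values, so the foreseen fallback was used: the authors' p and q with q under 0.05 as passed, no test across rats and no SD. Deposited q-values matched a recomputed Benjamini-Hochberg adjustment to within 5.25e-07. The recomputation was tested on simulated data. The loci, the gene and marker lists and the alternatives were chosen with earlier results of these data known. Named loci are the 10 highest in Sham, the 10 largest rises and falls that passed per surgery (1 FPKM or more in the higher group), the 5 longest and those nearest the cutoffs; the highest sole loci, further loci that passed, those beside genes and those with miRNAs or snoRNAs were added after values were seen. Distances run from locus to locus as listed. Sides of a gene were set from RefSeq (GRCr8) strands where at least 3 genes within 500 kb kept their order (rank correlation at least 0.9). Python 3.11.15, pandas 2.3.3, NumPy 2.4.6, SciPy 1.17.1 and Matplotlib 3.10.9 were used. Alternatives changed the q threshold, the features adjusted over, the Sham floor, the span, the fold asked for, the pseudocount, the scaling, the window and the names counted, and leaving out shared loci was added after the data were seen.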

Additional observations from a re-analysis of the deposited data

Results flagged for a closer look

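The library of 5/6Nx replicate 5 held 104 M reads (M, SI prefix mega), apart from the other 5 libraries of its group, which held 59.0 to 73.0 M reads. Its gap to the nearest library was 0.685 of the group's whole range, above Dixon's 95% critical value of 0.625 for 6 samples, which chance exceeds in about 1 in 20 groups. The ratio was read at both ends for reads, high-quality bases and mapping rate in every group, and no other exceeded its critical value. With that many looks, 1 such flag can arise by chance. Its mapping rate was 77.2%. Its part in the 5/6Nx values of the unnamed loci was not tested, since the expression tables hold group values.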

How the results depend on the processing

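No paired analysis was possible because the labels give no replicate numbers and the tables hold 1 value per group; for the same reason leaving out each rat, or the 2 poorly mapped libraries, and the settings for values per library were not run. The direction of every median was kept under all alternatives tried, and no result reversed; the 5 calls on loci listed at 0 have no fold to recompute. The number of loci was 1127 with a floor of 2 FPKM in Sham and 1125 with the floor read in the 5/6Nx table, against 2020. At q under 0.01 the 14 higher and 25 lower loci of 1/3Nx became 5 and 10, and the 34 higher and 19 lower loci of 5/6Nx became 15 and 3. With q recomputed over tested features with at least 1 FPKM in Sham, 5/6Nx had 5 higher and 2 lower, while 1/3Nx kept all 39; over unnamed features only, 1/3Nx lost 13 of its 39 calls, leaving 9 higher and 17 lower, and 5/6Nx kept its 53 among 37 higher and 22 lower. Higher calls in 1/3Nx numbered 6 with a span of 5000 bp and 6 with an absolute log2 fold change of at least 1, and higher calls in 5/6Nx numbered 10 with either other floor. With sole loci alone, an alternative chosen after seeing the data, 1/3Nx had 16 lower and a median log2 fold change of -0.15 in place of -0.38, and 5/6Nx had 11 higher and 11 lower. The 5/6Nx median of -0.46 was -0.22 as log2 of FPKM plus 1 and -0.28 when centred on named features, whose own median was -0.18 there. The loci within 10 kb of a named feature without sharing its locus fell to 216, against 565, with a span of 5000 bp. In the adjustment the threshold depends on the p-values of all features adjusted over. For the other changes the cause was not tested. Low levels limit precision, as 893 of 2020 loci lay under 2 FPKM.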
